A study of Mus musculus with 15 samples.

Results

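Hox genes encode homeodomain transcription factors that lie in 4 clusters, Hoxa to Hoxd, and carry paralog numbers 1 to 13 by their place in the cluster. The members described here are the 37 genes with such a symbol, of 14615 gene symbols in the processed table, and Hox transcripts on the opposite strand of an annotated exon (class x) would have been left out, but there were 0. They stand for 37 of 39 annotated Hox genes. Hoxa6 and Hoxb13 were not analysed here.

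RNA-seq was done on micro-dissected lenses of wild type C57BL/6NTac mouse embryos at embryonic day E10.5 and E12.5, and later at E14.5 and E16.5, and on whole embryos of the same strain and genotype. Each of the 5 groups had 3 libraries, called biological replicates in the labels. A lens library pooled 50 lenses at the first of these stages and 29, 18 and 17 at the stages after it. The whole-embryo libraries, called whole body, are labelled E10.5 to E12.5, and the sources used here do not state how the days were combined. Whole body therefore has no match in age for the E14.5 and E16.5 lenses.

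In vertebrate embryos the Hox clusters are switched on along the head-to-tail axis, low paralog numbers reaching furthest towards the head and high numbers marking the tail, the distal limb and the genital bud. The order of the genes along the chromosome follows the order of their domains. The lens forms from head surface ectoderm in front of the Hox-positive territory of the hindbrain and trunk, and the homeobox genes Pax6, Six3, Pitx3 and Prox1 are known regulators of it. Polycomb complexes keep Hox clusters silent where they are not used, and TALE homeodomain proteins (Pbx, Meis, Pknox) bind DNA together with Hox proteins.

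Values are scaled fragments per gene: sequenced fragments multiplied by 1 factor per library and summed over the transcripts of a gene. They are not scaled to transcript length. Levels are therefore compared between genes only after division by transcript length, as scaled fragments per kb. From the spacing of low values, 1 fragment was worth 0.0372 to 0.0399 scaled units in whole body, 0.0457 to 0.0561 at E10.5, 0.0589 to 0.0778 at E12.5 and 0.0872 to 0.1203 at E14.5 and E16.5. A level that shows as a single fragment at E10.5 could thus be missed at the later stages. The libraries held an estimated 11300000 to 19800000 fragments. Lens identity markers (10 genes, such as Foxe3, Pitx3 and Prox1) were all higher than in whole body at each stage, and their summed value was 1189 to 1353 in the E10.5 libraries against 73.4 to 75.5 in whole body.

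In whole body all 37 Hox genes were detected in all 3 libraries. Their summed value was 633, 662 and 631 scaled fragments in replicates 1, 2 and 3. Per kb of transcript, Hoxb9, a gene of the thoracic axis, had the highest level with 28.8 ± 1.21 (SD, n = 3). Hoxd4, active from the posterior hindbrain backwards, followed at 19.1 ± 3.10, Hoxa9 at 14.1 ± 1.61 and Hoxc6, a thoracic gene, at 13.4 ± 0.490. The intervals of Hoxa9 and Hoxc6 overlap within 1 SD, so their order is not resolved. The lowest levels per kb were those of Hoxc13, known from hair and nails, at 0.639 ± 0.205, Hoxd11 at 0.708 ± 0.123 and Hoxd1 at 0.849 ± 0.080, which overlap in part. The median over the 37 genes was 5.69 scaled fragments per kb.

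The whole-body level per kb varied with paralog number. With number 1, Hoxb1 stood at 2.58 ± 0.537 and Hoxd1 at the 0.849 given above. The median over the paralogs of a number was 11.0 for number 2 and between 4.41 and 10.6 for numbers 3 to 9. It was 4.12 for number 10, 1.49 for number 11, 2.31 for number 12 and 1.86 for number 13. Within number 13, Hoxd13 stood at 6.46 ± 0.180 per kb, above Hoxa13 at 1.86 ± 0.109 and Hoxc13. By cluster, the levels per kb summed to 66.0 over 10 Hoxa genes, 83.7 over 9 Hoxb genes, 57.0 over 9 Hoxc genes and 47.4 over 9 Hoxd genes.

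**Figure D1:**
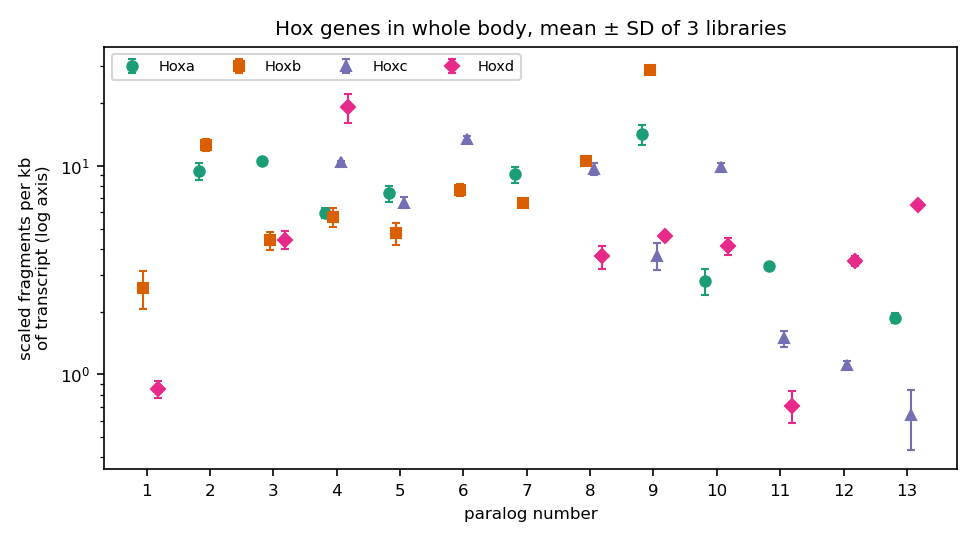
Whole-body level of 36 of the 37 Hox genes (scaled fragments per kb of transcript, log axis) against paralog number, with 1 symbol per cluster, as mean ± SD of 3 libraries. Hoxb9 is highest at 28.8 and Hoxc13 lowest at 0.639, and paralog numbers 1 and 11 to 13 lie mostly below numbers 2 to 9.

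Transcript models limit some of these levels. The 37 genes were made of 70 transcripts, of which 46 matched a reference transcript and 24 were other assembled forms (class j). Such a form of 8768 bases in Hoxa5 was longer than the annotated gene (chromosome 6, 52201754 to 52204587). The same held for a form of 10870 bases in Hoxb6 (chromosome 11, 96292476 to 96301569). They gave 14.7 of 25.4 and 20.2 of 31.7 scaled fragments in whole body, and may include reads from beyond these genes. Hoxd4 and Hoxc9 had no reference-matching transcript. Reference-matching transcripts gave 9.4% of the whole-body value of Hoxa3, 23.5% of Hoxb6, 26.8% of Hoxa9 and 29.3% of Hoxc4. Hoxd3 and Hoxd4 overlap in the annotation (mm10 chromosome 2, 74711927 to 74748442 and 74711929 to 74729160, plus strand), so reads of the 2 genes cannot be cleanly told apart. The same limit holds for Hoxa3, whose span (chromosome 6, 52169062 to 52213336, minus strand) contains Hoxa4 and Hoxa5. It also holds for Hoxc5, whose span (chromosome 15, 102967443 to 103017429, plus strand) contains Hoxc6, Hoxc8 and Hoxc9 and overlaps Hoxc10.

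In the lens Hox genes were at or near 0. Of 444 member values in the 12 lens libraries, 380 were listed at 0. At 10 members every lens library was at 0, among them Hoxa9, Hoxa11, Hoxa13, Hoxd3 and Hoxd12. Of 111 values per stage, 66 were at 0 at E10.5, and 100, 108 and 106 at the stages after it. Hoxc8 was the only member that reached 1 scaled fragment in a lens library, and it did so in 1 library. In bulk samples, fewer cells of a type and less RNA per cell cannot be told apart.

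**Figure D2:**
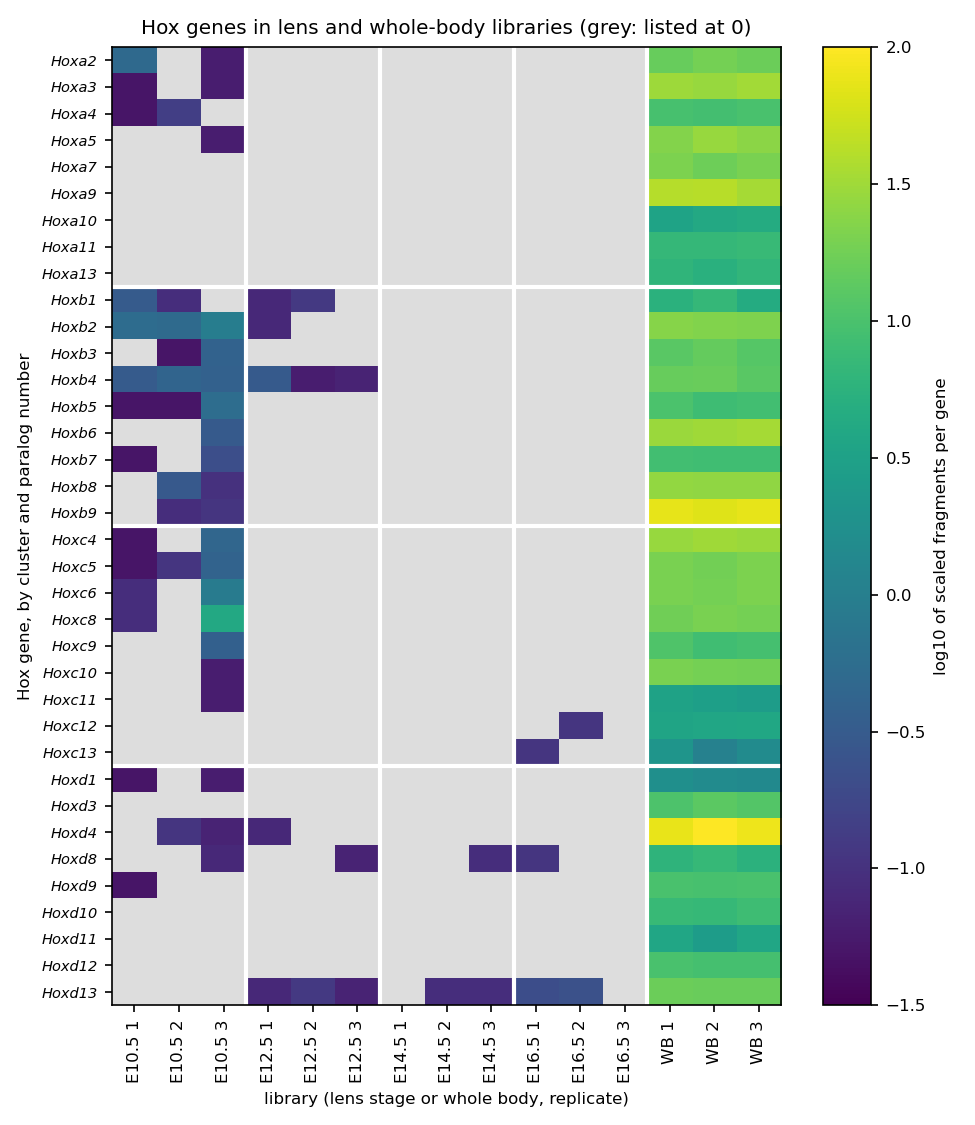
Scaled fragments per gene (log10 colour scale, grey for values listed at 0) of 36 of the 37 Hox genes, in rows by cluster and paralog number, in the 12 lens and 3 whole-body (WB) libraries. All whole-body cells are coloured, and 368 of 432 lens cells are grey.

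For every member, all 3 whole-body libraries lay above all 12 lens libraries. All 37 members were called lower than whole body at each of the 4 lens stages, and 0 were called higher (limma on log2(value + 1), Benjamini-Hochberg adjusted p over 14532 genes, largest adjusted p 5.18e-06 at E10.5). Among all genes tested, in order of stage, 31.2%, 37.1%, 42.6% and 43.4% were called lower and 24.6%, 32.3%, 35.7% and 36.8% higher. The groups did not overlap in the lower direction for 36.6%, 40.3%, 44.7% and 45.8% of all genes. The table kept only transcripts at 1 or more in at least 2 libraries, and each Hox transcript met this through whole body, so these members had to differ and the count says little about them. Of 752 genes at 1 or more in all whole-body libraries and in at most 1 lens library, 98.8% were called lower at E10.5 and 99.7% to 99.9% later.

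The log2(value + 1) scale understates differences of low genes. With lens values at or near 0, a difference on it mostly restates the member's whole-body value, which is not scaled to length, so the members are not ranked by it. Over the 37 members the differences ran from -1.31 to -6.38 at E10.5. The median difference from whole body was -3.47 at E10.5 and -3.67 at each later stage, beside -0.03 to -0.11 over all genes. Hoxd4 read 0, 0.11 and 0.07 in the E10.5 lens and 76.2, 105 and 82.3 in whole body, a difference of -6.38 ± 0.13 (SE). Hoxb9, at 0, 0.09 and 0.11 in the E10.5 lens and 74.5, 68.5 and 73.6 in whole body, differed by -6.10 ± 0.11. Hoxa9 was listed at 0 in all 12 lens libraries and stood at 41.4, 42.2 and 33.5 in whole body.

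Other abundant members repeated this picture. Hoxa3, active in the hindbrain and pharyngeal arches, read 0.05, 0 and 0.06 at E10.5 and 0 in all later lens libraries, against 30.9, 29.2 and 32.2 in whole body. Hoxb6 read 0, 0 and 0.31 at E10.5 and 0 later, against 29.4, 32.0 and 33.8. Hoxc4 read 0.05, 0 and 0.45 at E10.5 and 0 later, against 29.0, 31.9 and 29.7. In each of these genes the highest lens library lay far below the lowest whole-body library.

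Hox traces were concentrated in the E10.5 lens. The summed value over the 37 genes at E10.5 was 2.27 in replicate 1, 1.89 in replicate 2 and 9.79 in replicate 3, or about 50, 40 and 175 fragments. These sums were 0.354%, 0.294% and 1.52% of the whole-body mean. At E12.5 they were 0.63, 0.30 and 0.21, at E14.5 0, 0.09 and 0.18, and at E16.5 0.43, 0.34 and 0. The 3 E10.5 libraries thus lay above all later lens libraries.

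**Figure D3:**
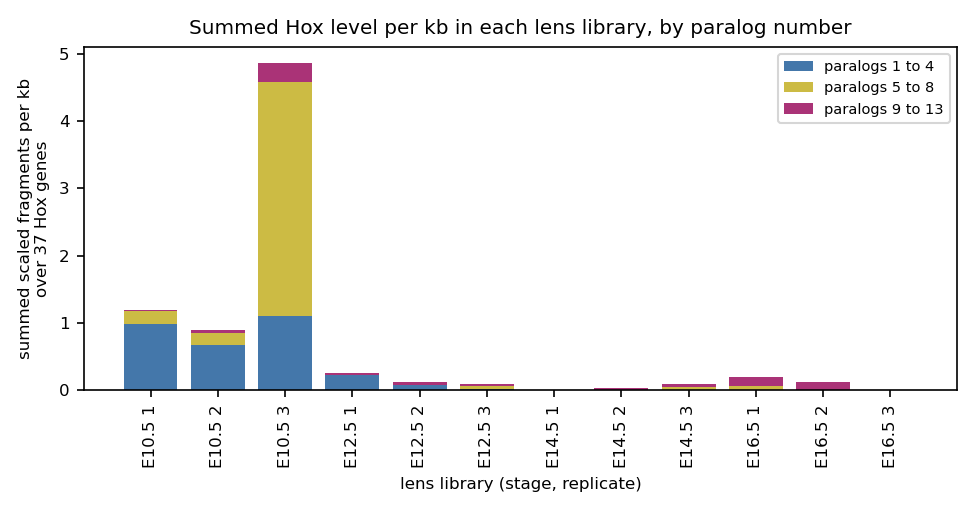
Summed scaled fragments per kb of transcript over the 37 Hox genes in each of the 12 lens libraries, stacked by paralog number (1 to 4, 5 to 8, 9 to 13). E10.5 replicate 3 reaches 4.85, mostly from numbers 5 to 8, the other E10.5 libraries reach 1.20 and 0.892, mostly from numbers 1 to 4, and later libraries stay at 0.257 or less.

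The E10.5 libraries differed in which Hox genes they held. Per kb of transcript, the levels summed to 1.20, 0.892 and 4.85 in replicates 1, 2 and 3, while the whole-body libraries summed to 251 to 257. In replicates 1 and 2, paralogs 1 to 4 gave 82.4% and 75.6% of this sum and the Hoxb cluster 55.5% and 82.6%. In replicate 3, paralogs 5 to 8 gave 71.6% and the Hoxc cluster 67.4%. Paralogs 9 to 13 gave 5.6% or less in each of the 3 libraries, against 33.0% to 35.5% in whole body. By cluster, 25.9% of the Hoxb values at E10.5 were at 0, against 55.6% for Hoxc, 76.7% for Hoxa and 77.8% for Hoxd.

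Hoxb2, which patterns the hindbrain and the facial motor neurons, was above 0 in all 3 E10.5 libraries. It read 0.55, 0.52 and 0.95 at E10.5, 0.08, 0 and 0 at E12.5, and 0 in all 6 later libraries, against 23.2, 21.9 and 20.9 in whole body. All E10.5 libraries lay above all later ones. Hoxb4, which marks the posterior hindbrain and neck, read 0.32, 0.43 and 0.39 at E10.5, 0.31, 0.06 and 0.07 at E12.5, and 0 in all E14.5 and E16.5 libraries. Its E10.5 libraries lay above its E12.5 libraries, by a single hundredth of a unit in the nearest pair. Hoxb1, a hindbrain gene, read 0.32, 0.09 and 0 at E10.5 and 0.08, 0.12 and 0 at E12.5, so its stages overlap.

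These were the 2 members called between lens stages. Hoxb2 fell from E10.5 to E12.5 by 0.70 ± 0.12 on the log2(value + 1) scale (limma, adjusted p = 0.000227), and was the 1 member called there, where 55.5% of all genes were called in either direction. From E10.5 to E16.5 Hoxb2 fell by 0.73 ± 0.12 (limma, adjusted p = 6.73e-05) and Hoxb4 by 0.46 ± 0.12 (limma, adjusted p = 0.00317), beside 73.9% of all genes called. In the F test over the 4 lens stages these 2 genes passed (limma, adjusted p = 0.000103 and 0.00828), beside 77.3% of all genes. From E12.5 to E14.5, and from E14.5 to E16.5, limma called 0 members, with 0 at an unadjusted p under 0.05, where 43.7% and 10% of all genes were called. Nothing is read from these shares, since 31 to 35 of the 37 members were at 0 in all 3 libraries of a stage from E12.5 on, and members at 0 at both stages could not be called.

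The E10.5 counts depended on the pseudocount and on single libraries. With a pseudocount of 0.1 or 0.01 in place of 1, 5 or 15 members were called from E10.5 to E12.5 and 7 or 17 from E10.5 to E16.5. Without E10.5 replicate 1 the counts were 2 and 4, without E10.5 replicate 2 they were 3 and 4, and without E12.5 replicate 1 the first was 2. The shares of all genes called under these settings are not given here. A smaller pseudocount also widens the difference between a single fragment and 0. These counts are therefore not read as stage changes of Hox genes.

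Hoxc8, a gene of the lower neck and thorax, read 0.09, 0 and 4.09 at E10.5 and 0 in all 9 later lens libraries, against 17.4, 19.9 and 18.9 in whole body. The single high library, E10.5 replicate 3, held about 73 fragments, 21.9% of the whole-body mean, in both of its listed transcripts. Hoxc8 was not called between stages (limma, adjusted p = 0.106 from E10.5 to E12.5), with a difference of -0.82 ± 0.42, and its values outside that library were at most 0.09.

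Its neighbours were also highest in replicate 3, and since the span of Hoxc5 takes in Hoxc6, Hoxc8 and Hoxc9, their values may not be independent. Hoxc6 read 0.09, 0 and 0.90 at E10.5, Hoxc5 0.05, 0.11 and 0.41, and Hoxc9 0, 0 and 0.38. Hoxb5 read 0.05, 0.05 and 0.57. In replicate 3, 21 members were above 0, against 14 in replicate 1 and 10 in replicate 2. The genes Hoxa4, Hoxa5, Hoxb3, Hoxb7, Hoxb8, Hoxc10, Hoxc11, Hoxd1 and Hoxd9 reached at most 0.40 (Hoxb3, replicate 3) and were at 0 in all later lens libraries. Not all members were highest in replicate 3. Hoxa2, which specifies the hyoid arch, read 0.50, 0 and 0.06, Hoxa4 0.05, 0.14 and 0, Hoxb8 0, 0.30 and 0.10, and Hoxd9 0.05, 0 and 0. Hoxb1, Hoxb4 and Hoxd4, given above, were not highest there either.

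**Figure D4:**
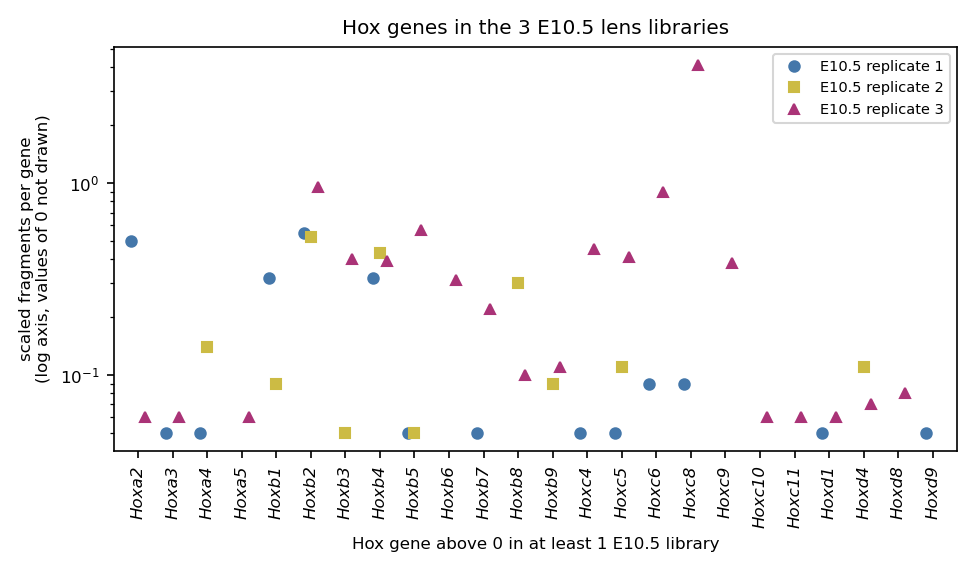
Scaled fragments per gene (log axis, values of 0 not drawn) of the Hox genes above 0 in at least 1 E10.5 lens library, with 1 symbol per library. Hoxb2 and Hoxb4 are present in all 3 libraries at 0.32 to 0.95, and the highest point is Hoxc8 at 4.09 in replicate 3.

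Markers of other tissues also differed among the E10.5 libraries. Periocular mesenchyme markers (10 of 11 in the table) summed to 401, 388 and 2827 in replicates 1 to 3, against 1640 to 1795 in whole body, and none was at 0. Liver markers (6 of 7) summed to 485, 12.9 and 878, against 240 to 276 in whole body. Alb was at 0 in replicate 2 and under 1 in every lens library, so these sums came from other genes of the list. Of the 6, 1 was called higher and 1, Alb, lower than whole body at E10.5, beside 24.6% and 31.2% of all genes. Alb differed by -5.12 ± 0.16 on the log2(value + 1) scale, and 4 were not called. Neuron markers (8 of 9) summed to 27.7, 21.9 and 32.4, against 732 to 787, with none at 0. Muscle markers (9 of 10) summed to 14.3, 6.14 and 10.9, against 531 to 559, with Myog at 0 in all 3 and Myl4 at 0 in replicate 2. Muscle, erythroid and pigment cell markers were not highest in replicate 3. Erythroid markers (9 of 10) summed to 3798, 1675 and 1600, against 6171 to 7725, with none at 0. Pigment cell markers (4 of 6) summed to 25.3, 80.7 and 74.6, against 3.14 to 5.36, with Tyr at 0 in replicate 1. Macrophage markers (11 of 11) summed to 130, 141 and 147, against 27.2 to 31.5, with none at 0 at E10.5. Endothelium markers (10 of 10) summed to 629, 614 and 560, against 319 to 324, with none at 0. Blood progenitor markers (10 of 10) summed to 329, 319 and 297, against 288 to 308, with Runx1 at 0 in replicates 2 and 3. The part of these markers in the Hox traces was not tested.

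Of 21 trunk, limb and heart patterning genes, Hand1, a gene of heart and lateral mesoderm, read 0, 0 and 12.4 at E10.5, or 132% of the whole-body mean in replicate 3. Hand2 read 0.50, 0 and 4.10, Gata4 0.46, 0 and 1.12, and Tbx4, a hindlimb gene, 0, 0 and 0.50. Other genes of the list were highest in replicate 1 or 2. Tbx15 read 0.37, 5.44 and 0.11, Meox2 0.09, 0.95 and 0.11, Meox1 0, 0.42 and 0, and T 1.07, 0.66 and 0.06. Pax1, Shox2, Nkx2-5 and Nkx3-2 were at 0 in all 3 libraries. Tbx5, a gene of forelimb, heart and dorsal eye, read 12.7, 23.1 and 22.9, so it did not follow Hoxc8. At E12.5 the mesenchyme markers summed to 1296, 560 and 457, while the Hox sum was 0.63, 0.30 and 0.21.

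At E14.5 and E16.5 the remaining traces were those of Hoxd13, Hoxd8, Hoxc12 and Hoxc13. Hoxd13, which shapes digits and genital bud, was at 0 in all 3 E10.5 libraries. It read 0.08, 0.12 and 0.07 at E12.5, 0, 0.09 and 0.09 at E14.5, and 0.21, 0.23 and 0 at E16.5, or 1 to 2 fragments in 7 of 9 libraries. Its whole-body mean was 16.0 ± 0.446 (SD, n = 3), with 15.6 in the lowest library, and it was not called between stages (limma, adjusted p = 0.146 from E10.5 to E16.5). Hoxd12, Hoxd11 and Hoxd10, next to it, were at 0 in all 12 lens libraries. Hoxd8 held about 1 fragment in 1 library of each stage, and Hoxc12 and Hoxc13 in 1 E16.5 library each.

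Beyond Hoxd13 the neighbours of the cluster were detected. Evx2, a homeobox gene 8.8 kb from Hoxd13, read 0 in all E10.5 libraries, 0, 0 and 0.21 at E12.5, 0.60, 0.27 and 0.17 at E14.5, and 0.11, 0.66 and 0.32 at E16.5. Its rise from E10.5 to E16.5 was 0.43 ± 0.16 on the log2(value + 1) scale (limma, adjusted p = 0.0282), and the call was lost without any 1 of the E10.5 libraries, without E16.5 replicate 2 and without E16.5 replicate 3. Evx2 stayed below whole body, at 2.64, 1.96 and 2.01.

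Lnp, which encodes the endoplasmic reticulum protein lunapark and lies 88.9 kb from Hoxd13, read 21.0, 19.4 and 20.8 at E10.5 and 134, 151 and 129 at E16.5. It rose by 2.70 ± 0.13 on that scale (limma, adjusted p = 8.82e-11), with no overlap between the stages. Mtx2, a mitochondrial import gene on the other side of the cluster, read 41.0, 41.8 and 42.4 at E10.5 and 58.7, 57.1 and 60.4 at E16.5.

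**Figure D5:**
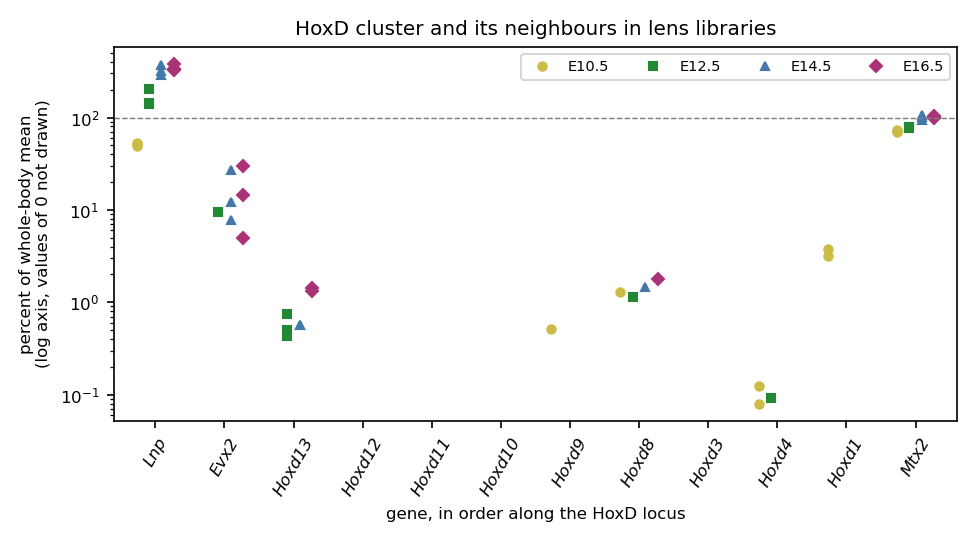
Value of each lens library as percent of the whole-body mean (log axis, values of 0 not drawn) for the genes along the HoxD locus, in chromosome order from Lnp to Mtx2, with 1 symbol per stage. Lnp and Mtx2 lie near or above the dashed line at the whole-body mean at E14.5 and E16.5, Hoxd13 lies below 2%, and Hoxd12, Hoxd11, Hoxd10 and Hoxd3 have no point.

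The upstream sequences of Hoxb4, Hoxd13 and Hoxd12 are shown because Hoxb4 held the E10.5 and E12.5 trace, Hoxd13 the later one, and Hoxd12, its neighbour, none. Each is the 250 bases before the RefSeq start (GRCm38.p6, plus strand), with CG dinucleotides in capitals. They lie at chr11:96318017-96318266 for Hoxb4, chr2:74667975-74668224 for Hoxd13 and chr2:74674763-74675012 for Hoxd12.
Hoxb4: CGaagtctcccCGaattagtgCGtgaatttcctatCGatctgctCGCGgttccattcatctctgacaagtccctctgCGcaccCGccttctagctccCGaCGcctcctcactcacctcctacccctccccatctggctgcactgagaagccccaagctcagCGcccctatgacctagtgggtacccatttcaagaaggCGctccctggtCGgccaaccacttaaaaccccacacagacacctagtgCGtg
Hoxd13: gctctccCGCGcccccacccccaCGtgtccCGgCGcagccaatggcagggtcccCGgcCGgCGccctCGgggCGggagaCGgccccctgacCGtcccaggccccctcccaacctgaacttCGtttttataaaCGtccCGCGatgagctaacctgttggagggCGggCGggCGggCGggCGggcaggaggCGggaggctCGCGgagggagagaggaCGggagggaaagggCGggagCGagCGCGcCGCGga
Hoxd12: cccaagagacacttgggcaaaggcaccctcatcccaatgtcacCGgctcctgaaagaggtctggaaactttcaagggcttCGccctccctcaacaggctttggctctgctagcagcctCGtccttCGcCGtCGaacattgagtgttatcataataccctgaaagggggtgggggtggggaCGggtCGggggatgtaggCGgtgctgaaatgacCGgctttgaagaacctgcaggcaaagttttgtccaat
These windows hold 14, 31 and 10 CG dinucleotides. Promoter sequences were matched for 21 of the 37 members, with 23 starts, and Hoxb2 and Hoxc8 were not among them. The median Hox window held 12 CG dinucleotides and 58.0% G and C, against 6 and 52.4% over 32851 promoters of all genes. The letters TTTATG, on either strand, were found in 21.7% of the Hox windows and 10.8% of all, and TATAAA in 17.4% and 12.4%. Matches of the 2 motifs may share bases. Of the 3 windows shown, the Hoxd13 window holds TATAAA.

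Genes that act with or upstream of Hox proteins were mostly expressed in the lens. All 9 TALE cofactors were detected in every lens library. At E10.5, 0 were called higher and 5 lower than whole body, beside 24.6% and 31.2% of all genes. At E16.5, 2 were higher and 6 lower, beside 36.8% and 43.4% of all genes. The median difference was -0.32 at E10.5, against -0.03 over all genes. Meis2 read 81.1 ± 9.38 at E10.5 against 198 ± 4.44 in whole body (SD, n = 3).

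From E10.5 to E16.5, 3 TALE genes rose and 6 fell, beside 37.2% and 36.7% of all genes, with a median of -0.69 against -0.01 over all genes. Pbx4 rose from 2.90 ± 0.493 to 24.4 ± 3.47 (log2 difference 2.70 ± 0.14) and Pbx3 from 48.6 ± 2.41 to 92.0 ± 2.40 (0.91 ± 0.07). Meis3 fell from 21.6 ± 1.20 to 1.47 ± 0.401 (-3.20 ± 0.26) and Meis1 from 81.2 ± 9.30 to 27.0 ± 1.30 (-1.55 ± 0.11).

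Caudal and Hox-related homeobox genes were represented by 5 of 11 in the table, Gsx1, Evx1, Evx2, Gbx1 and Gbx2, and all 5 were called lower than whole body at each stage, beside 31.2% to 43.4% of all genes. Their highest lens value was 0.66, so they entered the test through whole body alone and had to be called lower. Of the non-coding RNAs of the Hox clusters, 6 of 16 were in the table and all 6 were called lower at each stage. Their highest lens value was 0.70, so the same holds for them. Hoxb3os read 0.70, 0 and 0.45 at E10.5 and 0 in all later lens libraries, against 39.6 ± 3.23 in whole body. Whether reads were counted by strand is not given in the sources used here, so Hoxb3os and its sense partner cannot be told apart.

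Retinoic acid is a known inducer of Hox genes in the hindbrain and trunk. Of 14 genes of this pathway, 1 was called higher and 6 lower than whole body at E10.5, and 0 and 12 at E16.5, beside 24.6% and 31.2%, and 36.8% and 43.4%, of all genes. Cyp26a1, which degrades retinoic acid, read 23.3 ± 1.24 at E10.5 against 4.78 ± 0.732 in whole body, a log2 difference of 2.08 ± 0.27, and 2.89 ± 1.73 at E16.5. Aldh1a2, which makes it, read 0.667 ± 0.412 at E10.5 and 31.0 ± 10.1 at E12.5, against 44.6 ± 1.76. The binding proteins Crabp1 and Crabp2 fell from 135 ± 2.16 and 159 ± 19.1 at E10.5 to 0.290 ± 0.052 and 2.01 ± 0.320 at E16.5.

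All 29 Polycomb genes were tested. At E10.5, 4 were higher and 11 lower than whole body, with a median difference of -0.13, and at E16.5 7 were higher and 17 lower, beside the same shares of all genes. From E10.5 to E16.5, 8 rose and 13 fell, beside 37.2% and 36.7% of all genes, and with crystallins left out and library totals made equal 2 rose and 21 fell. In this comparison that rescaling moved the median of all genes by -0.45. Of all calls of at least 2-fold, 28.5% were then higher in place of 48.5%. The rescaled counts are thus not read as particular to a list. Ezh2, the methyltransferase of PRC2, fell from 169 ± 12.6 to 34.0 ± 2.87 and Cbx2 from 115 ± 6.14 to 26.9 ± 2.18, while Yaf2 rose from 33.6 ± 6.34 to 69.9 ± 4.69. Of 13 Trithorax and MLL genes, 1 was higher and 2 lower than whole body at E10.5, and 3 rose and 6 fell from E10.5 to E16.5, or 0 and 10 with that rescaling. The Trithorax counts without rescaling stand beside 24.6% higher and 31.2% lower, and 37.2% risen and 36.7% fallen, over all genes. Wdr5, a core subunit, fell from 97.2 ± 3.09 to 40.0 ± 0.528.

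Homeobox genes of head and eye included many above whole body. Of 18, 9 were higher and 5 lower than whole body at E10.5, with a median difference of 0.97, and 4 and 10 at E16.5, beside 24.6% and 31.2%, and 36.8% and 43.4%, of all genes. Six3 read 131 ± 7.30 at E10.5 against 5.77 ± 0.619 in whole body, and Pitx3 67.9 ± 7.59 against 0.580 ± 0.288. Of 21 patterning genes of trunk, limb and heart, 19 were lower at E10.5 and all 21 at each later stage, beside 31.2% and 37.1% to 43.4% of all genes. Of these, 10 stayed under 1 in every lens library and had to be called lower. Among them Meox1, a somite gene, read 0.140 ± 0.242 at E10.5 against 37.4 ± 4.13. Genes flanking the 4 clusters (21 of 26 in the table) were called higher in 5 and lower in 11 cases at E10.5, and higher in 9 and lower in 6 at E16.5, or lower in 14 at E16.5 with the rescaling above. Over all genes, without rescaling, these shares were 24.6% and 31.2% at E10.5 and 36.8% and 43.4% at E16.5. The rescaling moved the median of all genes by -0.50 at E16.5 against whole body, so the rescaled count is not read as particular to these genes.

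Small list counts at E10.5 against whole body moved when single libraries were left out. Without E10.5 replicate 1, 3 TALE genes were lower in place of 5. Without E10.5 replicate 2, 2 Polycomb genes were higher in place of 4, 1 Trithorax gene was lower in place of 2, 0 were higher in place of 1, and 2 flanking genes were higher in place of 5. Without E10.5 replicate 3, 4 Trithorax genes were lower. Without whole-body replicate 1, 2 Polycomb genes were higher and 1 Trithorax gene lower. Without whole-body replicate 2, 2 Polycomb and 3 flanking genes were higher, and without whole-body replicate 3, 1 Trithorax gene was lower. Without E12.5 replicate 2, 2 retinoic acid genes were higher in place of 1.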

How the data were processed

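The data were 15 RNA-seq libraries of lens and whole embryo, in 5 groups of 3. Per the submitters' processing notes, Trimmomatic, TopHat2 2.0.9, Cufflinks and Cuffnorm were used on build mm10. The deposited transcript values (signal) were made by the authors. Low values of 4487 single-transcript loci fell on whole multiples of 1 step per library in 75.9% to 81.8% of cases (tolerance 0.0075 units), against 12.5% to 40.3% by chance, in short and long transcripts alike. The values were therefore taken as scaled fragments and not FPKM, and since not all values were whole no count test was run. The test planned for FPKM was kept, as it needs only a log scale.

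Transcripts of a symbol were summed. Genes at 1 or more in at least 3 libraries were kept, and Cryaa, Cryba1 and Nufip2 were left out for a 0 beside a replicate of at least 50, leaving 14532 genes. limma 3.58.1 in R 4.3.3 was fitted on log2(value + 1) with all libraries, 1 mean per group and a trended prior, calling genes at an adjusted p under 0.05. No block was used. p-values measure the spread between these pools. For Hoxd4 and others the sum rests on assembled forms that do not match a reference transcript.

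Coordinates are from GENCODE vM21. Described in full are the 2 members per cluster with the highest whole-body mean, the 6 with the highest mean in a lens stage, and members called between stages; for gene lists, up to 2 called genes from each end. Hoxc9, Hoxb1, Hoxa2, Hoxd8, Hoxd1, Hoxc12, Hoxc13, Evx2, Lnp, Mtx2, Hand1, Hand2, Gata4, Tbx4 and the sequences were chosen after values were seen. So were Hoxa4, Hoxb8, Hoxd9, Tbx15, Meox2 and T. Some genes that this rule names, and 1 member in the plots, are not reported here. The members and lists were chosen with earlier results of these data known. The fit was tested on simulated data. Python 3.11.15, pandas 2.3.3 and matplotlib 3.10.9 were used.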

Additional observations from a re-analysis of the deposited data

Results flagged for a closer look

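Differences between lens stages passed their own test for 2 Hox genes. Hoxb2 changed by -0.70 from E10.5 to E12.5 and by -0.73 from E10.5 to E16.5, and Hoxb4 by -0.46 from E10.5 to E16.5, on the log2(value + 1) scale. Each rests on about 7 to 17 fragments per E10.5 library.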

How the results depend on the processing

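Against whole body, 37 members were called lower and 0 higher at each stage under every alternative that tested all 37. Of the 29 members left by a minimum of 5, and the 35 with reference-matching transcripts, all were called lower. Since each Hox transcript was in the table through whole body, these members had to be called lower. The counts against whole body therefore give no support of their own. Between stages the counts moved, and they are given without the shares of all genes under the same settings. From E10.5 to E12.5 (1 call) they were 5 and 15 with pseudocounts of 0.1 and 0.01, 2 with totals made equal after removal of crystallins, 3 without the trended prior, 0 with a 2-fold minimum, and 1 to 3 leaving out a library. From E12.5 to E14.5 (0 calls) both smaller pseudocounts gave 1. From E10.5 to E16.5 (2 calls) the counts were 7 and 17 with the smaller pseudocounts, 4 without the trend, 0 with the 2-fold minimum, and 2 to 4 leaving out a library. The F test (2 calls) gave 4 and 8 with the smaller pseudocounts, 1 with values per kb, 1 without E10.5 replicates 1 and 3 together, and 2 to 3 leaving out a library. The values per kb and the joint removal were added after seeing the data. Apart from the 2-fold minimum, the filter and the removals, the cause was not tested. Rescaling without crystallins shifted the median of all genes by -0.19, -0.42 and -0.50 at E12.5, E14.5 and E16.5 against whole body, and quantile normalization by 0.11 at E14.5. Of 1620 list counts under alternatives, 116 moved by over 1.5 times. Samples of the same replicate number were weakly correlated after removal of group means (r from -0.09 to 0.24 over 30 pairs). The 4 pairs over 0.1 were all among lens stages from E12.5 on. Samples of unlike numbers were not compared, so a shared batch was not tested. The replicate block gave 37 and 0 calls against whole body, and 1, 0, 0 and 2 between stages and 2 in the F test. Depth limits the lens values, where 1 fragment is worth up to 0.1203 units. The 2-fold minimum could not be applied to the F test.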
